A study of Arabidopsis thaliana with 18 samples.

Results

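The late-numbered miRNAs described here are the 143 entries of a table of 422 Arabidopsis mature miRNAs that are numbered from miR1886 up, miR2111 and miR8175 left out, and they run to miR8184. They were defined by number and not by a measured value, though the set was drawn up with earlier results of these data known. Small RNAs had been sequenced from 7-day-old seedlings of Col-0, the common laboratory accession of Arabidopsis thaliana, kept as control, heat stressed for 1 h at 37°C (HS) or given a further 2 h at 22°C after HS (recovery). For each condition 3 libraries were made from total RNA, with no antibody, and 3 from RNA recovered after immunoprecipitation of ARGONAUTE1 (AGO1-IP), which gave 6 groups and 18 libraries. All groups share the genotype, the age and the whole seedling as tissue, so that values are averages over all organs and cell types, and a lower level can mean fewer cells of a type or less RNA per cell. A mock immunoprecipitation was not analysed here, so that reads of RNA that sticks to beads cannot be told apart from reads of RNA bound by AGO1.

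A plant miRNA is cut from a hairpin transcript by DICER-LIKE1 as a short duplex. One strand, the guide, is kept by an ARGONAUTE protein and pairs with target transcripts, while the passenger strand is discarded and degraded. AGO1, the main miRNA effector of Arabidopsis, prefers small RNAs of 21 nt with a 5′ uridine, whereas AGO2 and AGO4 prefer a 5′ adenosine and AGO5 a 5′ cytidine, and AGO4 mostly holds 24-nt siRNAs. Registry numbers are given in order of submission, so that high numbers went to sequences found late, mostly in deep sequencing, many of them young, weakly expressed and present in only a few related species. The comparison of AGO1-IP with total RNA therefore asks, entry by entry, whether a listed sequence was recovered with AGO1 as well-known guides were, or was left behind as their passenger strands were.

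The mature sequences of the 25 miRNAs whose values are given library by library are printed first, because their first bases are set against their recovery with AGO1. The files list names only, so the sequences were read at the RefSeq annotation's coordinates in TAIR10.1, to which all 422 names were matched. They run 5′ to 3′, and capitals mark the seed (bases 2 to 8). The 13 called higher in AGO1-IP than in total RNA, from the largest fold change down, were these.
miR5996: uGACAUCCagauagaagcuuug
miR5012: uUUUACUGcuacuuguguucc
miR5654-3p: uGGAAGAUgcuuugggauuuauu
miR3440b-3p: uGGAUUGGucaagggaagcgu
miR5024-3p: cCGUAUCUuggccuugucauu
miR8170-3p: uUGCUUAAagauuuucuaugu
miR5652: uUGAAUGUgaaugaaucgggc
miR1886.2: uGAGAUGAaaucuuugauugg
miR1886.1: uGAGAGAAgugagaugaaauc
miR4228-3p: uCGGAUGCgaaacgguggugu
miR5651: uUGUGCGGuucaaauaguaac
miR3932b-5p: uUUGACGUgcucgaucugcuc
miR1888a: uAAGUUAAgauuugugaagaa

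The 10 with the largest fall from total RNA to AGO1-IP were the following, from the largest down.
miR5017-5p: aUUUGUUAcuaauuuggaaug
miR8166: aGAGAGUGuagaaaguuucuca
miR3933: aGAAGCAAaaugacgacucgg
miR8121: aAAGUAUAaugguuuagugguuug
miR5634: aGGGACUUugugaauuuaggg
miR5659: cGAUGAAGgucuuuggaacggua
miR8167a: aGAUGUGGagaucguggggaug
miR8177: gUGUGAUGaugugucauuuaua
miR5595a: aCAUAUGAucugcaucuuugc
miR5020b: aUGGCAUGaaagaaggugaga

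A further pair was among the entries with most reads in total RNA.
miR5026: aCUCAUAAgaucgugacacgu
miR5663-5p: aGCUAAGGauuugcauucuca

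Of the 13 that were higher in AGO1-IP, 12 began with U and 1, miR5024-3p, with C. Of the 36 that were lower, which held 28 different sequences, 24 began with A, 7 with U, 3 with G and 2 with C. The first base was not used to choose or test any of them. Among all 143 late-numbered miRNAs, 62 began with U and 62 with A (43.4% each), against 175 (62.7%) with U and 40 (14.3%) with A of the 279 other entries. The tested entries outside the late-numbered ones were alike on the higher side, where 80 of 93 began with U. Of the 71 that were lower, 9 began with U, 26 with G, 22 with A and 14 with C. As a yardstick, 30 guide strands of conserved or well-studied families held 26 with a first U, and 30 of their annotated passenger strands held 16 with a first G and 5 with a first U. Seeds were rarely shared: GAGAGAA, the seed of miR1886.1, was also that of miR5640, and the other shared seeds belonged to copies of 1 name, such as GAUGUGG in miR8167a to miR8167f, or to the pairs miR5595a with miR5995b and miR5020a with miR5641.

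Read depth bears on everything that follows. Reads counted on miRNAs numbered 321918 to 1059362 in each total RNA library (5648950 in all) and 1374777 to 5745126 in each AGO1-IP library (31882114 in all), and levels below are reads in every 1000000 miRNA reads (CPM). No read in any of the 9 libraries of a kind allows a level of up to 0.531 CPM in total RNA and 0.0941 CPM in AGO1-IP, taking 3 reads as the floor over the 9 libraries. Intervals and floors cover counting error only, because reads amplified by PCR are not independent molecules. AGO1-IP recovery replicate 1 stood apart in its scaling factor, and the 3 total RNA libraries of replicate 3 stood apart in single miRNAs named below, and results that rest on them are also given without them.

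Of the 143 late-numbered miRNAs, 140 had at least 1 read. A read was found for 138 in total RNA and for 124 in AGO1-IP, 16 only in total RNA and 2 only in AGO1-IP. The 3 without any read were miR5630a, miR5660 and miR5666. A read in each of the 9 libraries of a kind was seen for 47 (32.9%) in total RNA and 29 (20.3%) in AGO1-IP, against 203 (72.8%) and 193 (69.2%) of the 279 other entries. Single libraries held 87 to 104 of them in total RNA and 43 to 89 in AGO1-IP, although the AGO1-IP libraries were deeper. When every library was brought to 321918 reads by calculation, the expected number was 65.5 to 93.2 in total RNA and 27.9 to 35.8 in AGO1-IP, and the ranges did not overlap. The same calculation for the other entries gave 222 to 237 in total RNA and 185 to 198 in AGO1-IP.

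As a group they were a small part of the miRNA reads. They held 0.402 ± 0.0776% of them in total RNA of control seedlings (SD, n = 3), after HS 0.594 ± 0.142% and after recovery 0.490 ± 0.115%. The share in AGO1-IP was 0.0989 ± 0.0125% in control, 0.106 ± 0.0134% after HS and 0.105 ± 0.0222% after recovery, so that every AGO1-IP library (at most 0.130%) lay below every total RNA library (at least 0.313%). Most of the total RNA share was 1 entry, miR5026, without which the 3 total RNA means were 0.161, 0.242 and 0.196% and the 3 AGO1-IP means 0.0800, 0.0845 and 0.0837%.

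**Figure D1:**
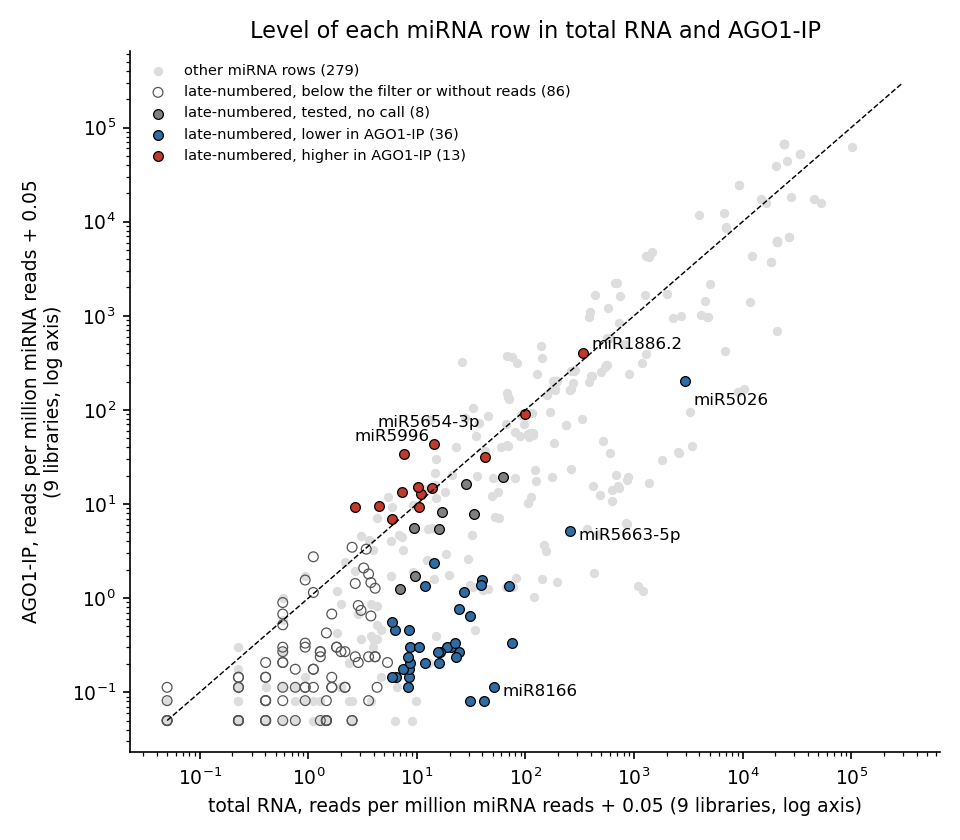
Level of each of the 422 listed miRNAs, in CPM over the 9 libraries of a kind, with 0.05 added so that 0 can be drawn, in total RNA (horizontal, log axis) and AGO1-IP (vertical, log axis). Grey points are the 279 other entries and the dashed line marks equal levels. Red and blue points are late-numbered miRNAs called higher (13) or lower (36) in AGO1-IP by edgeR with TMM scaling, dark grey points were tested with no call (8) and open points were below the filter or without reads (86), so that red points can lie on the dashed line.

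AGO1-IP was then compared with total RNA in 1 fit of all 18 libraries (edgeR's quasi-likelihood test with TMM scaling, Benjamini-Hochberg adjustment over 269 entries, calls at an adjusted p below 0.05). Over the mean of the 3 conditions, 13 late-numbered miRNAs were higher in AGO1-IP, 36 were lower and 8 were not called, of 57 that passed the filter on low counts. Among all 269 entries tested, 39.4% were called higher and 39.8% lower. The median log2 fold change of AGO1-IP against total RNA was -3.59 over the 57 and -0.16 over all entries tested, 1.34 over the 30 guides and -3.80 over the 30 passengers. Of the 30 guides 19 were called higher and 4 lower, and of the 30 passengers 3 were higher and 23 lower. These counts describe only the 57 that passed: judged within 1 kind of library alone, 19 of the 36 lower ones passed the filter only in total RNA and 9 of the 13 higher ones only in AGO1-IP, so that such entries had to differ to enter the fit, and 83 late-numbered miRNAs with reads did not enter it.

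Set beside the yardstick lists, 11 of the 57 lay at or above the median guide and 26 at or below the median passenger. The overlap of the lists was wide, since the guides ran from -4.16 (miR172a) to 3.58 (miR164a) and the passengers from -8.49 to 2.57 (miR173-3p). Only 4 of the 57 (miR5996, miR5012, miR5654-3p and miR3440b-3p) lay above every listed passenger, and 20 lay below every listed guide.

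**Figure D2:**
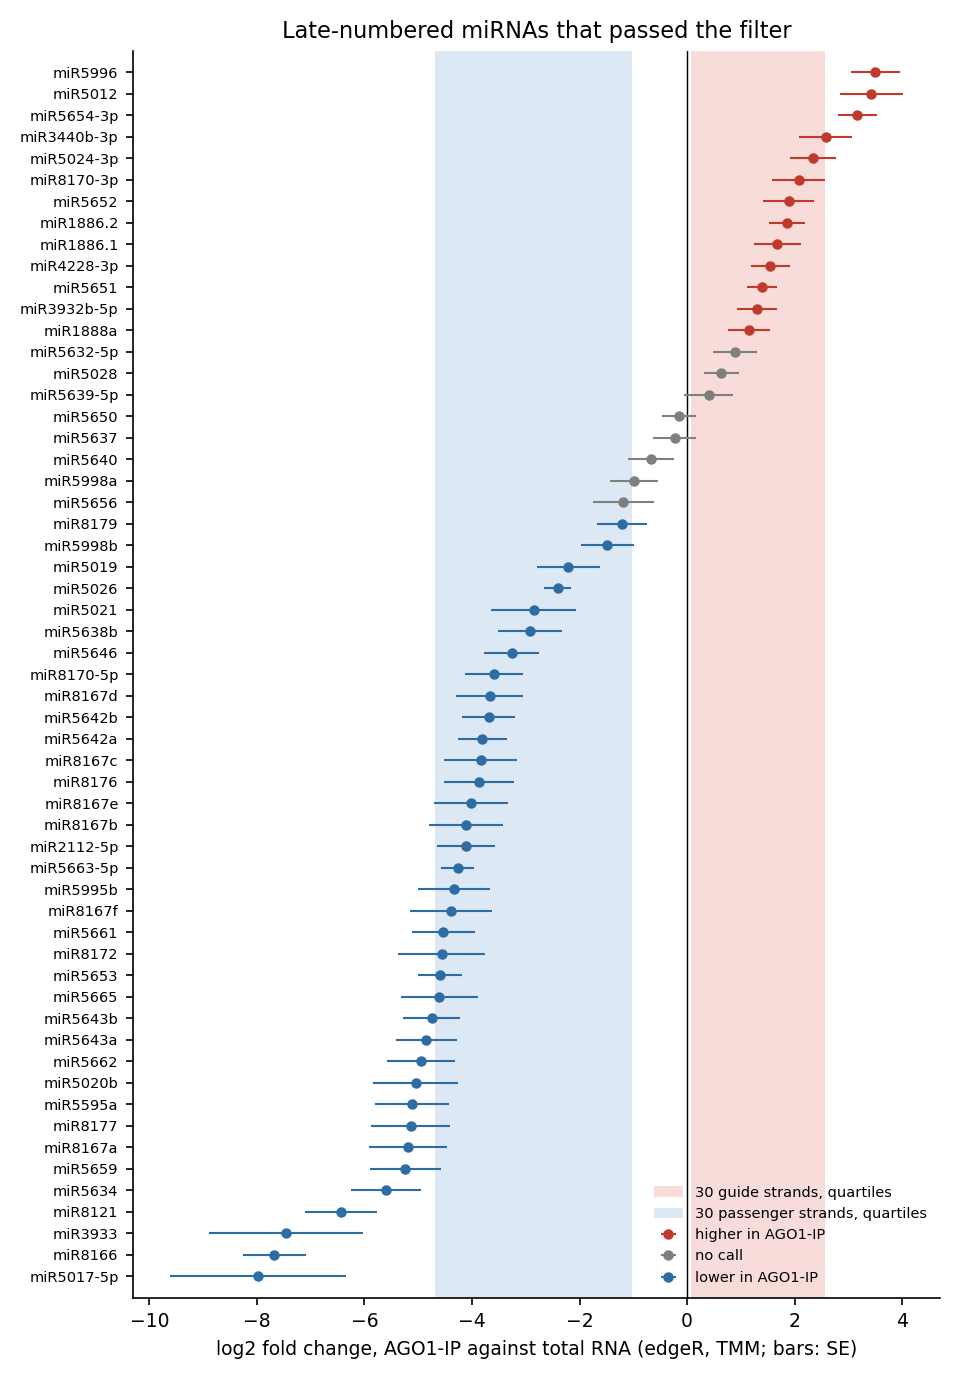
Log2 fold change of AGO1-IP against total RNA (horizontal, mean of the 3 conditions, edgeR with TMM scaling) for the 57 late-numbered miRNAs that passed the filter, with bars of 1 SE. Red points were called higher (13), blue points lower (36) and grey points neither (8), and the shaded bands span the quartiles of 30 guides (red, 0.075 to 2.56) and 30 passengers (blue, -4.69 to -1.02), the lower ones reaching past the passenger band to -7.98.

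The calls were set against other ways of putting both kinds of library on 1 scale. Each of these lowered the fold changes of the table as a whole, which can take away higher calls but lower calls only through the filter, so that lower calls were not put to the test by them. TMM gave factors of 1.49 to 1.88 to total RNA libraries and 0.464 to 0.649 to AGO1-IP libraries, except for 1.07 to AGO1-IP recovery replicate 1. Without that library all 13 higher calls and 34 of the 36 lower calls remained. The median of all entries tested was -0.16 with TMM, -0.81 with RLE factors and -1.62 with no factor, and fold changes are best read against that shift. All entries tested split into 106 higher and 107 lower with TMM, 78 and 137 with RLE, 46 and 167 with no factor, 65 and 135 with library sizes that left out miR156 reads, and 51 and 163 with library sizes that took in the reads of trans-acting siRNA (TAS) loci. Each of the 36 lower calls among late-numbered miRNAs held with RLE and with no factor, and 32 and 35 of them with the last 2 library sizes, where the rest did not pass the filter. Of the 13 higher calls, only those of miR5996, miR5012, miR5654-3p and miR3440b-3p held under each of these scalings, while miR1888a and miR3932b-5p turned lower with no factor and with TAS reads, and miR5651 turned lower with no factor.

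The 4 whose higher level in AGO1-IP held under every scaling run were U-first sequences of low abundance in total RNA. Per-library levels are given in the order of replicates 1, 2 and 3. miR5996 (chr4:7882848-7882869 on the minus strand) lies in an exon of UNE15, read in the sense direction. In total RNA, miR5996 stood at 13.1, 3.78 and 6.86 CPM in control, 9.32, 2.03 and 10.8 in HS and 17.1, 1.4 and 12.5 in recovery. Its AGO1-IP levels were 40.4, 43.4 and 30.2 CPM in control, 20.02, 42.1 and 37.8 in HS and 12.4, 35.8 and 28.6 in recovery. All AGO1-IP libraries but recovery replicate 1 lay above all total RNA libraries. The log2 fold change was 3.50 ± 0.45 (edgeR, adjusted p = 3.29e-07), 3.65 without that recovery library, and 1.97 with no scaling factor. miR5654-3p, of 23 nt (chr1:11786348-11786370 on the plus strand, in an exon of AT1G32583), was found in total RNA at 15.3, 11.3 and 27.4 CPM in control, 3.11, 6.096 and 10.8 in HS and 11.4, 5.6 and 28.1 in recovery. The AGO1-IP libraries held 44.4, 31.5 and 32.04 CPM in control, 32.4, 30.02 and 32.7 in HS and 144, 45.6 and 36.1 in recovery. Every AGO1-IP library exceeded every total RNA library, and recovery replicate 1 was far above the rest. Its fitted log2 value was 3.16 ± 0.36 (edgeR, adjusted p = 5.26e-08), 3.06 without that library, and 1.80 with no factor.

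miR5012, in intergenic sequence at chr2:8432747-8432767 on the plus strand, was at the edge of detection in total RNA. Its reads there numbered 3, 1 and 3 reads in control, 0, 1 and 0 in HS and 1, 3 and 3 in recovery. The AGO1-IP libraries gave 64, 30 and 15 reads in control, 51, 63 and 5 in HS and 8, 53 and 9 in recovery. In CPM, the HS libraries of AGO1-IP (3.64 to 13.6 CPM) lay above those of total RNA (at most 2.03 CPM), and the groups overlapped in control and recovery. The fit gave 3.43 ± 0.59 (log2, edgeR, adjusted p = 1.66e-05), and 1.94 with no factor. miR3440b-3p (chr3:6217559-6217579 on the plus strand) lies within a transcribed pseudogene. It was found in total RNA at 17.5, 2.83 and 2.29 CPM in control, 3.11, 4.06 and 2.71 in HS and 0, 8.399 and 1.56 in recovery. In AGO1-IP, levels of 9.75, 11.3 and 6.597 CPM in control, 9.896, 8.64 and 7.27 in HS and 9.03, 11.1 and 10.7 in recovery were seen. The AGO1-IP levels were even across libraries, and total RNA lay below all of them except in control replicate 1 and recovery replicate 2. The log2 fold change came to 2.58 ± 0.49 (edgeR, adjusted p = 5.80e-05), and 1.099 with no factor.

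The other 9 higher calls were lost with no scaling factor, and their unscaled ratios of AGO1-IP to total RNA ran from 0.758 to 1.82. miR1886.2 was the most abundant late-numbered miRNA of AGO1-IP, with 12812 reads. It overlaps miR1886.1 on the same hairpin arm, at chr2:15611882-15611902 on the plus strand, within an exon of AT2G37160. In total RNA, miR1886.2 stood at 263, 192 and 475 CPM in control, 158, 427 and 248 in HS and 276, 421 and 496 in recovery. The AGO1-IP levels were 399, 468 and 377 CPM in control, 249, 508 and 594 in HS and 203, 287 and 699 in recovery. The ranges overlapped in each condition. The ratio of pooled CPM was 1.196 (95% interval 1.14 to 1.26), and the fitted log2 fold change was 1.85 ± 0.33 (edgeR, adjusted p = 2.70e-05), which fell to 0.37 with no factor and was then not called. miR1886.1 had 61 reads in total RNA and 401 in AGO1-IP. Its total RNA levels were 4.38, 15.1 and 4.57 CPM in control, 12.4, 12.2 and 10.8 in HS and 14.2, 4.2 and 20.3 in recovery. AGO1-IP showed 11.3, 19.9 and 5.03 CPM in control, 13.7, 18.8 and 5.09 in HS and 10.9, 7.16 and 17.5 in recovery. The libraries of both kinds covered the same range, and the log2 fold change was 1.68 ± 0.44 (edgeR, adjusted p = 0.00126), or 0.18 with no factor.

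miR5651 (chr3:17178489-17178509 on the plus strand, intergenic) had like levels in both kinds of library. Total RNA gave 105, 82.1 and 112 CPM in control, 62.1, 108 and 122 in HS and 42.7, 113 and 111 in recovery. AGO1-IP gave 101, 70.6 and 81.7 CPM in control, 93.6, 85.96 and 109 in HS and 85.1, 101 and 90.05 in recovery. Levels overlapped in each condition, and the fit returned 1.39 ± 0.28 (log2, edgeR, adjusted p = 1.03e-04), or -0.078 with no factor. miR1888a (chr5:7168879-7168899 on the plus strand, in an intron of AT5G21100) had total RNA levels of 24.1, 31.2 and 57.2 CPM in control, 18.6, 50.8 and 43.4 in HS and 25.6, 56.0 and 48.4 in recovery. Those of AGO1-IP were 29.1, 34.5 and 14.5 CPM in control, 35.98, 41.7 and 32.01 in HS and 9.504, 30.6 and 51.6 in recovery. Unscaled, its ratio of AGO1-IP to total RNA was 0.758 (95% interval 0.657 to 0.877), below 1, while the TMM-scaled log2 fold change was 1.15 ± 0.39 (edgeR, adjusted p = 0.01), so that its direction rests on the scaling. miR3932b-5p (chr4:7890695-7890715 on the minus strand) had only 7 of its 21 bases paired in the predicted hairpin fold, the fewest of the 13. It stood in total RNA at 19.7, 11.3 and 8.005 CPM in control, 6.21, 12.2 and 5.42 in HS and 5.69, 11.2 and 14.05 in recovery. The AGO1-IP libraries were at 8.53, 10.4 and 8.17 CPM in control, 11.02, 9.93 and 4.36 in HS and 16.2, 5.21 and 10.3 in recovery. Both kinds covered the same range, with a log2 fold change of 1.30 ± 0.36 (edgeR, adjusted p = 0.00244) that turned to -0.13 with no factor.

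miR5024-3p, the only one of the 13 to begin with C, lies in an intron of AAP5, an amino acid permease gene (chr1:16766285-16766305 on the minus strand). Total RNA levels were 21.9, 6.61 and 6.86 CPM in control, 6.21, 4.06 and 4.07 in HS and 2.84, 11.2 and 3.12 in recovery. In AGO1-IP they were 19.1, 9.78 and 15.7 CPM in control, 8.77, 16.6 and 10.9 in HS and 5.23, 13.03 and 11.1 in recovery. Control replicate 1 of total RNA was above all AGO1-IP libraries, and the HS groups did not overlap. The log2 fold change was 2.35 ± 0.43 (edgeR, adjusted p = 3.84e-05), 0.84 with no factor. miR8170-3p (chr2:14100079-14100099 on the plus strand, in an intron of AT2G33255) had 4.38, 9.44 and 14.9 CPM in control, 6.21, 16.3 and 6.78 in HS and 5.69, 16.8 and 6.24 in recovery in total RNA. Its AGO1-IP levels spread widely, at 11.8, 14.1 and 7.23 CPM in control, 7.42, 32.6 and 19.6 in HS and 1.901, 16.9 and 21.8 in recovery. Recovery replicate 1 of AGO1-IP was the lowest of all 18 libraries, and the log2 fold change was 2.07 ± 0.50 (edgeR, adjusted p = 6.32e-04), 2.25 without that library and 0.54 with no factor.

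miR4228-3p (chr1:28889481-28889501 on the plus strand) stood at 15.3, 17.9 and 10.3 CPM in control, 27.96, 24.4 and 8.13 in HS and 11.4, 7.0 and 9.37 in recovery in total RNA. The corresponding AGO1-IP levels were 16.4, 8.56 and 19.8 CPM in control, 14.8, 10.2 and 7.27 in HS and 12.4, 16.3 and 22.2 in recovery. No condition separated the kinds fully except recovery, where AGO1-IP was higher. On the log2 scale the change was 1.55 ± 0.36 (edgeR, adjusted p = 4.41e-04), 0.037 with no factor. miR5652 (chr1:23413402-23413422 on the minus strand) lies antisense to the coding sequence of AT1G63130, and without knowledge of the strand counted its reads cannot be told apart from those of that gene. It had 0, 1.89 and 5.72 CPM in control, 3.11, 10.2 and 20.3 in HS and 5.69, 2.8 and 1.56 in recovery in total RNA. AGO1-IP was at 11.5, 2.75 and 7.54 CPM in control, 5.17, 5.18 and 5.82 in HS and 9.98, 6.73 and 5.55 in recovery. The kinds overlapped in each condition, total RNA HS replicate 3 being the highest of all 18 libraries, and the log2 fold change was 1.89 ± 0.48 (edgeR, adjusted p = 9.72e-04), 0.49 with no factor.

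The 13 together held 3191 reads in total RNA, 11.7% of the late-numbered reads, and 22081 in AGO1-IP, 68.3%. Of the 57, only miR5654-3p had every AGO1-IP library above every total RNA library, as did 4.83% of all entries tested. All 13 had a read in each AGO1-IP library. Of the 13, 12 matched the TAIR10.1 genome perfectly at 1 place only, and 12 had a mature sequence with at most 5 bases unpaired in the predicted hairpin. In single conditions, 7 of the 57 were called higher in all 3 (miR5996, miR5012, miR5654-3p, miR3440b-3p, miR5024-3p, miR1886.2 and miR5651), a count not made over all entries tested. All entries tested showed 34.6, 29.7 and 31.6% called higher in control, HS and recovery, against 10 of the 57 late-numbered ones in each condition. The count in control was 6 without total RNA control replicate 2 or AGO1-IP control replicate 1, and the count in recovery was 6 without total RNA recovery replicate 3 or AGO1-IP recovery replicate 2.

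A middle group of 8 was not called: miR5632-5p at 0.89 (log2, adjusted p = 0.0525), miR5028 at 0.64, miR5639-5p at 0.40, miR5650 at -0.15, miR5637 at -0.23, miR5640 at -0.67, miR5998a at -0.99 (adjusted p = 0.0501) and miR5656 at -1.18 (adjusted p = 0.0571), all by edgeR with TMM. miR5998a has the same mature sequence as miR5998b, which was called lower at -1.48, and summed to 1 entry they gave -1.23. With no factor each of the 8 was below 0, from -0.55 to -2.61. They had 39 to 352 reads in total RNA and 38 to 613 in AGO1-IP, and 4 began with U and 4 with A. Of these, 6 lay in introns of protein-coding genes, among them miR5640 in CALS1, a callose synthase gene.

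miR5026 was the most abundant late-numbered miRNA of total RNA, and it was lower in AGO1-IP in each library. It is an A-first sequence in an intron of the non-coding RNA AT4G13495 (chr4:7844612-7844632 on the plus strand). Total RNA held 2446, 1995 and 2787 CPM in control, 2463, 4647 and 3448 in HS and 1846, 4012 and 2961 in recovery. AGO1-IP held 208, 208 and 149 CPM in control, 278, 179 and 173 in HS and 314, 181 and 147 in recovery. The lowest total RNA library was several times above the highest AGO1-IP library, while even so miR5026 was the late-numbered miRNA with most AGO1-IP reads (6517) after miR1886.2. The ratio of pooled CPM was 0.0691 (95% interval 0.0672 to 0.0711), and the fitted log2 fold change was -2.40 ± 0.25 (edgeR, adjusted p = 1.20e-08). miR5663-5p (chr1:18686942-18686962 on the minus strand, antisense to an intron of AT1G50440) came next among those that fell, with 1460 reads in total RNA. Its levels there were 276, 173 and 202 CPM in control, 491, 492 and 214 in HS and 265, 294 and 176 in recovery. In AGO1-IP 6.27, 5.197 and 2.199 CPM in control, 4.27, 4.54 and 3.64 in HS and 15.7, 3.04 and 5.16 in recovery remained. The kinds were far apart in each condition, with a log2 fold change of -4.27 ± 0.31 (edgeR, adjusted p = 3.73e-11).

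**Figure D3:**
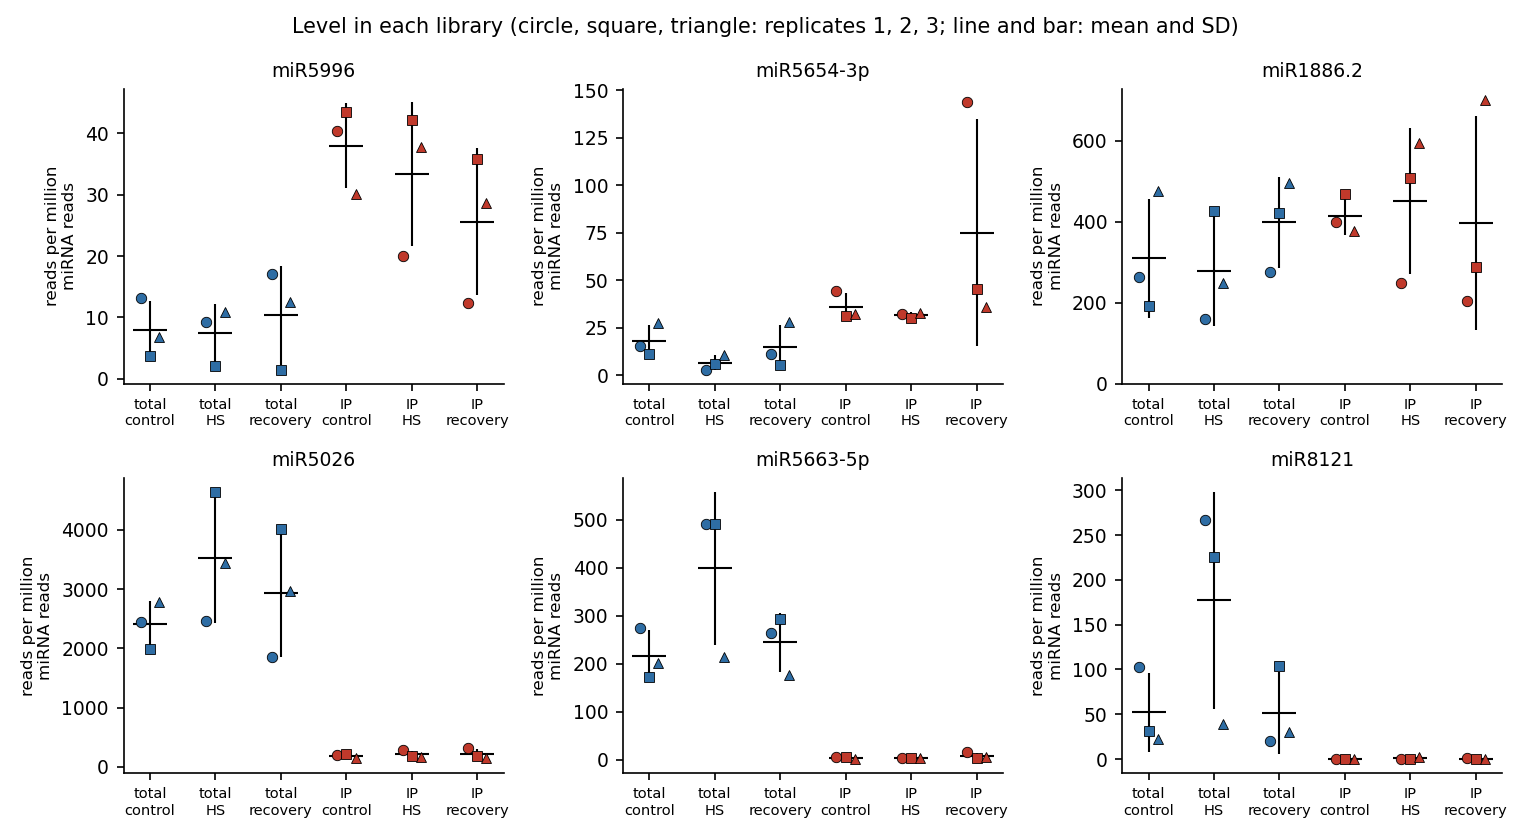
Level of 6 late-numbered miRNAs, in CPM (vertical axis from about 0, its range set for each panel), in the 18 libraries, with total RNA in blue and AGO1-IP in red. Symbols are single libraries (circle, square and triangle for replicates 1, 2 and 3), and lines with bars are the mean and SD of 3. miR5996 and miR5654-3p are higher in AGO1-IP, miR1886.2 overlaps between kinds, and miR5026, miR5663-5p and miR8121 are lower in every AGO1-IP library.

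The 10 largest falls were of sequences with few or no reads in AGO1-IP, so that their fold changes depend on small counts and reads are given for that side. miR5017-5p lies antisense to an exon of AT4G22760 (chr4:11963005-11963025 on the minus strand), and as for miR5652 its reads cannot be told apart from reads of that gene. In total RNA it was found at 87.6, 5.66 and 0 CPM in control, 224, 95.5 and 1.36 in HS and 99.6, 44.8 and 0 in recovery. AGO1-IP held 1 read in all, in recovery replicate 2. Replicate 3 of total RNA was near 0 in each condition while replicates 1 and 2 were not, so the kinds overlap there. The ratio of pooled CPM was 7.60e-04 (95% interval 1.92e-05 to 0.00428), and the fitted log2 value was -7.98 ± 1.64 (edgeR, adjusted p = 9.69e-04). miR3933 (chr5:15758111-15758131 on the plus strand, intergenic) was near 0 in the same replicate of total RNA, and in control in replicate 2 as well, with 54.7, 3.78 and 2.29 CPM in control, 96.3, 154 and 0 in HS and 48.4, 28.0 and 0 in recovery in total RNA. A single AGO1-IP read was found, in control replicate 1. Its ratio was 0.00101 (95% interval 2.55e-05 to 0.00572) and its log2 fold change -7.46 ± 1.44 (edgeR, adjusted p = 4.72e-04). Both calls held in each of the 18 fits that left out 1 library, and with the 3 total RNA libraries of replicate 3 left out together.

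**Figure D4:**
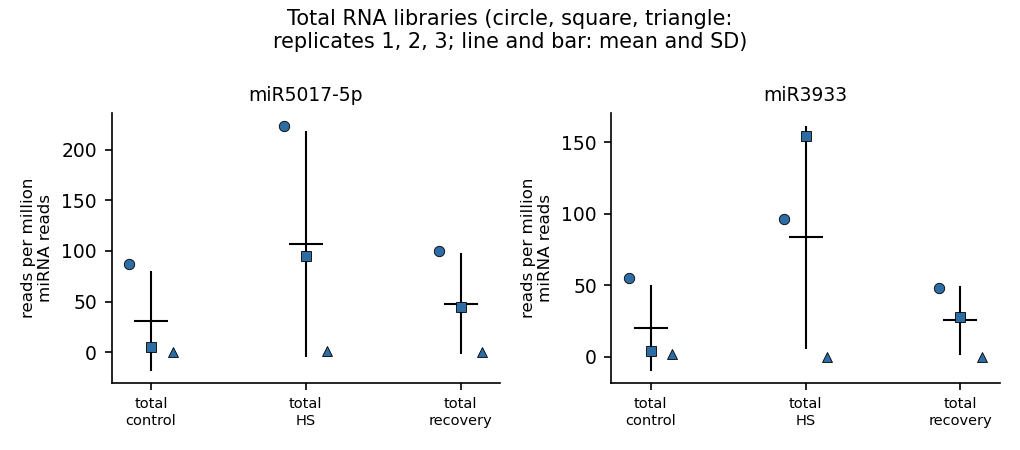
Level of miR5017-5p and miR3933, in CPM (vertical axes from about 0), in the 9 total RNA libraries. Symbols are single libraries (circle, square and triangle for replicates 1, 2 and 3), and lines with bars are the mean and SD of 3, wide because replicate 3 is at or near 0 in control, HS and recovery. The bars reach below 0 for miR5017-5p in each condition and for miR3933 in control.

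miR8166 (chr1:4525316-4525337 on the minus strand) has 13 perfect matches in the genome. Its total RNA levels were 39.4, 23.6 and 37.7 CPM in control, 146, 87.4 and 31.2 in HS and 82.5, 51.8 and 54.6 in recovery. Only 2 AGO1-IP reads were counted, 1 in control replicate 3 and 1 in recovery replicate 2. Every total RNA library was above every AGO1-IP library, with a ratio of 0.00122 (95% interval 1.47e-04 to 0.00445) and a log2 fold change of -7.67 ± 0.59 (edgeR, adjusted p = 2.19e-10). miR8121, a 24-nt sequence at chr2:16588077-16588100 on the minus strand, was among the 5 late-numbered miRNAs with most reads in total RNA. It stood there at 103, 31.2 and 22.9 CPM in control, 267, 226 and 39.3 in HS and 19.9, 104 and 29.7 in recovery. AGO1-IP counts were 0, 0 and 1 reads in control, 0, 1 and 3 in HS and 2, 2 and 0 in recovery. The kinds did not overlap, and the log2 fold change was -6.44 ± 0.67 (edgeR, adjusted p = 1.06e-08). The other late-numbered 24-nt entry tested, miR5653, gave -4.60 ± 0.40. Outside the late-numbered ones, 1 tested entry of 24 nt was called higher (miR163, 1.69 ± 0.24) and 1 lower.

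miR5634 (chr4:14982322-14982342 on the plus strand, antisense to an exon of AT4G30750) had 24.1, 13.2 and 20.6 CPM in control, 18.6, 12.2 and 23.04 in HS and 17.1, 36.4 and 54.6 in recovery in total RNA. Its AGO1-IP libraries counted 1, 1 and 0 reads in control, 0, 0 and 0 in HS and 5, 0 and 0 in recovery. Most of the AGO1-IP reads came from recovery replicate 1, and the log2 fold change was -5.60 ± 0.66 (edgeR, adjusted p = 1.51e-07), or -6.73 without that library. As for miR5017-5p, its reads cannot be told apart from reads of the gene it overlaps. miR5659, of 23 nt and C-first (chr5:16409804-16409826 on the minus strand, intergenic), was at 24.1, 10.4 and 21.7 CPM in control, 37.3, 50.8 and 20.3 in HS and 11.4, 29.4 and 14.05 in recovery in total RNA. The reads of AGO1-IP were 1, 0 and 4 reads in control, 0, 0 and 0 in HS and 1, 0 and 3 in recovery. No AGO1-IP library reached the lowest total RNA library, and the log2 fold change was -5.24 ± 0.66 (edgeR, adjusted p = 4.02e-07). miR8177 (chr5:9362634-9362655 on the minus strand) begins with G and matches the genome perfectly at 7 places. Total RNA levels were 10.9, 5.66 and 26.3 CPM in control, 6.21, 38.6 and 43.4 in HS and 17.1, 7.0 and 46.8 in recovery, highest in replicate 3 of each condition. AGO1-IP reads were 0, 2 and 0 reads in control, 3, 0 and 0 in HS and 0, 1 and 0 in recovery, and the log2 fold change was -5.14 ± 0.73 (edgeR, adjusted p = 1.34e-06), or -4.16 without the replicate 3 libraries of total RNA.

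miR8167a (chr2:8894985-8895006 on the plus strand) shares its whole mature sequence with miR8167b to miR8167f. Its total RNA levels were 6.57, 8.496 and 3.43 CPM in control, 31.1, 10.2 and 8.13 in HS and 8.53, 5.6 and 4.68 in recovery. AGO1-IP had 2 reads in all, both in recovery replicate 1. The ratio was 0.007704 (95% interval 9.06e-04 to 0.0295), with a log2 fold change of -5.19 ± 0.72 (edgeR, adjusted p = 2.78e-06). Reads of the 6 copies cannot be assigned to a locus, and the 6 held 36 to 49 reads each in total RNA and 2 to 8 in AGO1-IP. Summed to 1 entry they gave -4.50. miR5595a (chr2:10027010-10027030 on the minus strand, in an exon of MES6, a methylesterase gene) has the same sequence as miR5995b. It stood at 15.3, 16.99 and 22.9 CPM in control, 3.11, 16.3 and 18.97 in HS and 11.4, 12.6 and 14.05 in recovery in total RNA. AGO1-IP reads were 0, 0 and 2 reads in control, 3, 0 and 0 in HS and 0, 0 and 0 in recovery. Its log2 fold change was -5.12 ± 0.69 (edgeR, adjusted p = 1.10e-06), and -4.83 for the sum of both entries. miR5020b (chr4:6787108-6787128 on the minus strand) was at 15.3, 7.55 and 12.6 CPM in control, 12.4, 4.06 and 1.36 in HS and 2.84, 8.399 and 10.9 in recovery in total RNA. AGO1-IP had 3 reads, all in control replicate 1, for a ratio of 0.0113 (95% interval 0.00225 to 0.0351) and a log2 fold change of -5.05 ± 0.78 (edgeR, adjusted p = 1.12e-05).

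The other lower calls ran close together. Between -4.95 and -4.10 lay miR5662 (-4.95), miR5643a (-4.85), miR5643b (-4.75), miR5665 (-4.60), miR5653, miR8172 (-4.56), miR5661 (-4.53), miR8167f (-4.39), miR5995b (-4.33), miR5663-5p, miR2112-5p (-4.11) and miR8167b (-4.10). Less far down were miR8167e (-4.01), miR8176 (-3.87), miR8167c (-3.84), miR5642a (-3.81), miR5642b (-3.69), miR8167d (-3.67), miR8170-5p (-3.59), miR5646 (-3.26), miR5638b (-2.92), miR5021 (-2.85), miR5019 (-2.21), miR5998b (-1.48) and miR8179 (-1.21). The last of these was the least secure, being called in 13 of the 18 fits that left out 1 library, and miR5998b and miR8179 were not called with the replicate 3 libraries of total RNA left out. miR5019 and miR5021 passed the filter, and were called, in 9 of those 18 fits.

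Every total RNA library lay above every AGO1-IP library, in CPM with no scaling factor, for 28 of the 36 lower ones. It did so for 1 of the 8 not called and 0 of the 13 higher ones. Over all 269 entries tested, whatever their call, the count was 104 (38.7%). The call itself makes such a gap likely, so the count among the 36 is not to be set against that share. Of the 36, 23 had fewer than 10 AGO1-IP reads over 9 libraries. The ratio of pooled CPM was between 0.000760 and 0.160, with an interval below 1 for each of the 36, as for each of the 8 not called. Together they held 22261 reads in total RNA, 81.9% of the late-numbered reads, and 7167 in AGO1-IP, 22.2%. In the genome, 22 of the 36 matched perfectly at more than 1 place, up to 15, and 13 shared their mature sequence with another entry, against 1 and 0 of the 13 higher ones. The other entries tested did not show this order, with more than 1 match for 22 of 71 lower and 40 of 93 higher ones, and a shared mature sequence for 20 and 35. Copies of 1 sequence count more than once in these numbers, since the 36 lower ones held 28 different sequences and the 13 higher ones 13. Of the 36, 7 lay antisense to a gene and 8 in the sense direction within one, against 1 and 10 of the 13 higher ones, and for all of these reads of the miRNA and of the gene cannot be told apart. The lengths were 20 nt for 5, 21 nt for 20, 22 nt for 8, 23 nt for 1 and 24 nt for 2. At most 5 bases of the mature sequence were unpaired in the predicted hairpin for 35 of the 36, as for 264 of 268 tested entries. The median number of unpaired bases was 3.5, against 2.0 for the 13 higher ones and 2.0 for the 71 other lower entries. Median folding energy was -33.7 kcal per mol for each 100 nt, against -39.4 and -41.3. Copies of 1 sequence count more than once in these medians too, among them miR8167a to miR8167f at -25.2 each. These differences were not tested. Counted by condition, 34, 33 and 30 of the 57 were lower in control, HS and recovery, against 30.9, 36.8 and 32.3% of all entries tested. Of the 57, 29 were lower in all 3 conditions and none was called in opposite directions. These 2 counts were not made over all entries tested, so they cannot be read as particular to late-numbered miRNAs.

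Both arms of a hairpin were listed for 14 late-numbered precursors, which allows the arms to be compared by the share of reads on each. This share does not depend on the scaling between libraries. At MIR8170 the 5p arm, A-first, made up 70.6% of 197 reads in total RNA (95% exact interval 63.7 to 76.8) and 4.53% of 508 reads in AGO1-IP (2.89 to 6.72). The 5p arm had more reads than the U-first 3p arm in 7 of the 9 total RNA libraries (not in control replicate 2 and recovery replicate 2) and in 0 of the 9 AGO1-IP libraries. At MIR5654 the A-first 5p arm had 12.9% (6.85 to 21.45) in total RNA and 0.144% (0.0174 to 0.518) in AGO1-IP. At MIR4228 the 5p share was 15.4% (8.67 to 24.5) in total RNA and 0 of 465 reads in AGO1-IP, an interval of up to 0.790%.

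At MIR5024 the 5p share was 26.8% (15.8 to 40.3) in total RNA and 9.44% (6.95 to 12.5) in AGO1-IP, the remaining arm being C-first. MIR5663 kept its A-first 5p arm as the major one, at 98.9% (98.25 to 99.4) and 86.8% (81.2 to 91.3). Arm shares did not differ beyond their intervals at MIR5632 (71.6 and 79.7%, both arms U-first), MIR5639 (99.0 and 98.9%), MIR3440b (35.9 and 26.3%, both U-first), MIR3932b (98.3 and 100%), MIR2112 (98.9 and 100%), MIR5648 (31.0 and 26.3%), MIR5014a (58.8 and 53.3%), MIR2934 (27.3 and 36.8%) and MIR3434 (75 and 100%), the last on 2 AGO1-IP reads. The intervals are for reads pooled over 9 libraries and leave out the spread between libraries, and no test was run on them.

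**Figure D5:**
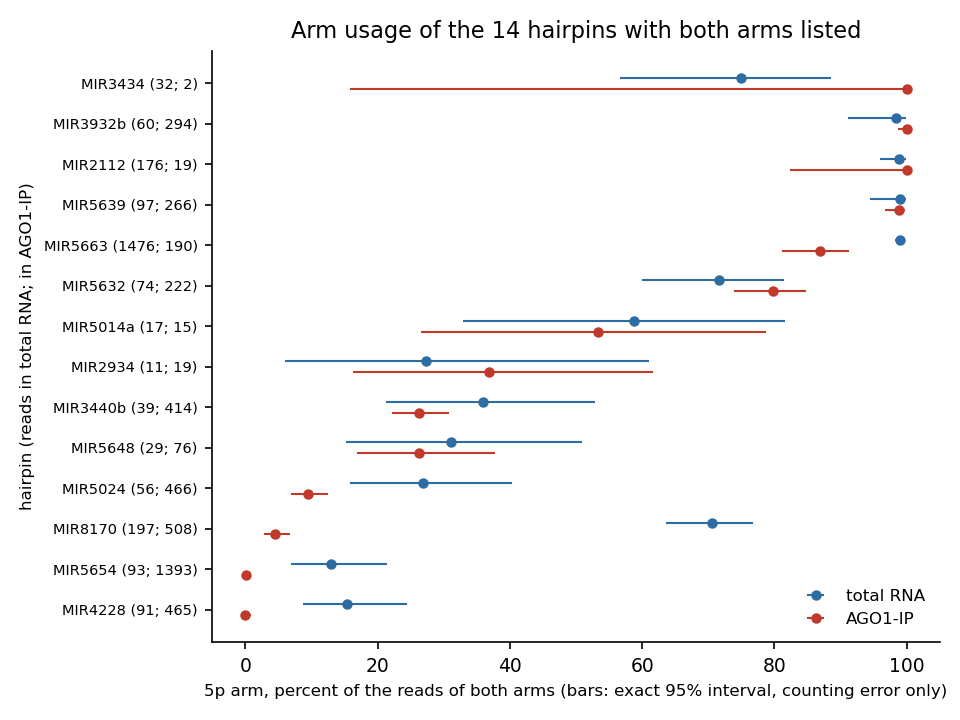
Share of reads on the 5p arm, in percent of the reads of both arms (horizontal), at the 14 hairpins with both arms listed, in total RNA (blue) and AGO1-IP (red), with the reads of each kind in brackets. Points are reads pooled over 9 libraries and bars are exact 95% intervals for counting error. MIR8170 moves from 70.6 to 4.53%, and MIR5654, MIR4228, MIR5024 and MIR5663 have bars that do not overlap.

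Below the filter were 83 late-numbered miRNAs with reads. They had 0 to 30 reads in total RNA (median 6) and 0 to 109 in AGO1-IP (median 3), over 9 libraries each. The ratio of pooled CPM, with no scaling factor, had an interval below 1 for 50 of them, spanning 1 for 32 and above 1 for 1, miR5629, which had 6 reads in total RNA and 86 in AGO1-IP (ratio 2.54, 1.12 to 7.11). A ratio of 1 is not a neutral point here, since with no factor all entries tested had a median log2 fold change of -1.62. The 8 tested late-numbered miRNAs with no call also had intervals below 1. Those with most reads in AGO1-IP were miR3440b-5p (14 in total RNA and 109 in AGO1-IP), miR8178 (19 and 104), miR5629, miR1888b (18 and 65) and miR5648-3p (20 and 56). Those with most in total RNA were miR8180 (30 and 5), miR3434-5p (24 and 2), miR4243 (23 and 6), miR5664 (23 and 6) and miR8183 (23 and 39). No AGO1-IP read was found for 16, of which miR4228-5p and miR5644 had most total RNA reads (14 each). Their total RNA level was 26.3-fold above the AGO1-IP floor of 3 reads over 9 libraries, in CPM with no scaling factor. That figure leaves out the counting error of the 14 reads. By first base, 39 of the 83 were U and 33 were A.

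The treatments were compared within each kind of library, to ask whether HS or recovery changed the amount of these miRNAs or the amount held by AGO1. No late-numbered miRNA was called in any of these comparisons by edgeR on group means, with no replicate block, nor by DESeq2. In total RNA 31 of them passed the filter, and at an unadjusted p below 0.05 there were 4 for HS against control, 0 for recovery against control and 2 for recovery against HS. Over all 229 entries tested the same counts were 25, 4 and 7, and 0% were called in each comparison. Among 25 that passed in AGO1-IP, 0 were below an unadjusted p of 0.05 in each of the 3 comparisons. Of all 215 entries, 13, 8 and 12 were below it, and 1.86, 0.465 and 0.465% were called.

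In total RNA after HS, 25 of the 31 had a log2 fold change above 0, as did 120 of all 229 entries tested. The median was 0.62 against 0.01 over all entries tested. The medians were 0.31 against 0.02 for recovery against control and -0.38 against -0.05 for recovery against HS, comparisons that share their libraries with the first. In AGO1-IP the medians were 0.05 against -0.11 for HS, 0.02 against -0.20 for recovery and -0.20 against -0.10 for recovery against HS. None of these medians was tested.

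The smallest p for HS in total RNA belonged to miR5640, whose levels were 35.03, 7.55 and 6.86 CPM in control, 115, 109.7 and 10.8 in HS and 51.2, 39.2 and 20.3 in recovery. Replicates 1 and 2 were above all controls after HS and replicate 3 was not, and the log2 fold change was 2.37 ± 0.86 (edgeR, adjusted p = 0.392). The next were miR8166 at 1.37 ± 0.53 and miR5663-5p at 0.90 ± 0.38, whose control, HS and recovery levels are given above. With a replicate block miR5640 (2.26, edgeR, adjusted p = 0.0103) and miR5017-5p (2.35, edgeR, adjusted p = 0.00975) were called higher after HS. Same-numbered control and HS libraries of total RNA were not linked throughout. miR2112-5p, in an intron of SPPL4 (chr1:234126-234146 on the minus strand), moved the other way in total RNA, at 26.3, 16.99 and 36.6 CPM in control, 15.5, 12.2 and 5.42 in HS and 39.8, 57.4 and 65.6 in recovery. Its 3 HS libraries were below all control and all recovery libraries. The log2 fold change was -1.31 ± 0.56 for HS against control (edgeR, adjusted p = 0.414) and 2.31 ± 0.56 for recovery against HS (edgeR, adjusted p = 0.44). AGO1-IP held 19 of its reads in all, too few to follow there.

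For recovery against HS the next smallest p were those of miR5662 (-1.40) and miR8121 (-1.76), and for recovery against control those of miR5637 (1.152), miR2112-5p (0.997) and miR5642a (0.92). In AGO1-IP, miR5637 (-0.87), miR8170-3p (0.87) and miR5650 (0.45) had the smallest p after HS. After recovery against control these were miR5654-3p (0.87), miR5637 (-1.04) and miR5632-5p (0.68), and against HS miR5654-3p (0.98), miR5012 (-0.77) and miR5663-5p (0.60). For miR5654-3p, AGO1-IP recovery replicate 1 was at 144 CPM and the other recovery libraries at 45.6 and 36.1 CPM, beside 31.5 to 44.4 CPM in control, and without that library its changes were 0.43 against control and 0.45 against HS. All of these are log2 fold changes that did not pass the test.

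Whether the ratio of AGO1-IP to total RNA itself changed was tested as an interaction in the fit of 18 libraries. No late-numbered miRNA was called, of 57, against 0.372% of all 269 entries for HS and 0% for recovery. At an unadjusted p below 0.05 there were 4 of the 57 for HS and 3 for recovery, against 11 and 6 of all 269 entries. DESeq2 called no late-numbered miRNA. The smallest p for HS belonged to miR2112-5p (3.81 ± 1.35), miR5642a (-3.04 ± 1.11) and miR5659 (-4.26 ± 1.79), and for recovery to miR5021 (4.48 ± 1.95), miR5637 (-2.19 ± 0.98) and miR5653 (2.04 ± 0.92). Their SE ran from 0.92 to 1.95 on the log2 scale. The sign of the fold change between AGO1-IP and total RNA was the same in all 3 conditions for 54 of the 57, a count not made over all entries tested.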

How the data were processed

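Per the labels and the study's methods, 100 ng of RNA and 15 PCR cycles went into each RealSeq v2 small RNA library, and reads were trimmed with Cutadapt 2.9 to reads of 18 to 34 nt and mapped with Bowtie2 to TAIR10. The authors deposited raw read counts per mature miRNA, with no normalisation, and raw counts per TAS position, used here only for 1 alternative library size. How reads at several loci were counted, and whether strand was used, is not given in the sources used here. 0 sample columns were left unused.

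Counts were tested in R 4.3.3 with edgeR 4.0.16 (glmQLFit, robust, glmQLFTest, TMM factors, filterByExpr by group, Benjamini-Hochberg adjustment at 0.05) on 6 group means without covariates, after the script had been tested on simulated data. AGO1-IP was compared with total RNA, and the change of that ratio tested, in all 18 libraries, and treatments within the 9 libraries of each kind. Depth was 321918 to 5745126 miRNA reads per library, which are sums over the listed miRNAs and not whole sequencing depth. Intervals are exact, at 95%. Replicates are biological replicates per the study's design text.

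Values in every library are given for late-numbered miRNAs called in the mean comparison (up to 10 in each direction, with miR3932b-5p and miR1888a added after their values were seen) and for the 5 with most reads in each kind, for treatments the 3 smallest p, and below the filter the 5 with most reads in each kind. miR2112-5p in HS against control and miR5644, miR4228-5p and miR5629 were named after their values were seen. The members, the 30 guides, the 30 passengers and the tests were chosen with earlier results of these data known. Alternatives were RLE factors, no factor, other library sizes, no filter, DESeq2 1.42.0, identical sequences summed, only the libraries compared, a replicate block and leaving out each library.

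Total RNA and AGO1-IP came from the same biological replicates per the study's methods, and same-numbered libraries deviated together in control (r of 0.126 to 0.307) but less after HS (0.00271 to 0.108) and recovery (0.0446 to 0.145). Between conditions same-numbered libraries are not stated to be linked. Every r was over 0.1 for total RNA recovery with control (0.269 to 0.796) and with HS (0.509 to 0.813), and for AGO1-IP HS with recovery (0.367 to 0.575), and the block changed no call in these comparisons.

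Mature sequences and coordinates were taken from the RefSeq annotation of TAIR10.1, and hairpin folds were predicted from it. Ratios of pooled CPM use no scaling factor.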

Additional observations from a re-analysis of the deposited data

How the results depend on the processing

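Every other scaling run lowered the fold changes as a whole, so that it could remove higher calls but lower ones only through the filter. Over the mean of the 3 conditions the 13 higher calls became 4 with no scaling factor, 7 with library sizes without miR156 reads and 5 with library sizes that include TAS reads, and 11 of the 13 remained with RLE factors and with DESeq2. The 36 lower calls became 55, of 140 entries, with no filter on low counts. With identical sequences summed, all 13 higher and 27 of the 36 lower calls remained, the others being counted under another copy's name. Directions turned for miR1888a (-0.37 with no factor, -0.29 with TAS reads), miR3932b-5p (-0.13 and -0.045) and miR5651 (-0.078 with no factor). In control the 10 higher calls became 5 with RLE and with DESeq2, 1 with no factor, 2 without miR156 reads and 1 with TAS reads, and 6 to 11 when 1 library was left out (6 without total RNA control replicate 2 or AGO1-IP control replicate 1). After HS they became 3, 5 and 3 with no factor, without miR156 reads and with TAS reads. After recovery they became 5 with RLE, 4 with DESeq2, 1 with no factor, 3 without miR156 reads, 1 with TAS reads and 4 with only the 6 libraries compared, and 6 to 11 with 1 library left out (6 without total RNA recovery replicate 3 or AGO1-IP recovery replicate 2). With only the 6 libraries of a condition fitted, 19, 16 and 18 were lower in control, HS and recovery, where fewer entries passed the filter. The causes of the other changes were not tested.

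With the replicate block all 13 higher and 36 lower calls remained, and the 0 calls of total RNA HS against control became 2, miR5017-5p (2.35, adjusted p = 0.00975, edgeR) and miR5640 (2.26, adjusted p = 0.0103), where same-numbered libraries were not linked throughout (r of -0.0015 to 0.744) and 4 of 6 libraries had their highest correlation with the same number. It moved no other count of calls by more than 1.5 times, the lower calls of the mean comparison being 37. With the total RNA replicate 3 libraries left out, a setting chosen after seeing the data, 17 were higher and 42 lower.

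Detection fell from 138 to 47 in total RNA and from 124 to 29 in AGO1-IP when a read was asked for in each of 9 libraries, and to 80.3 and 31.7 at the lowest depth. Without miR5026 the share of reads was 0.161, 0.242 and 0.196% in total RNA control, HS and recovery and 0.0800 and 0.0845% in AGO1-IP control and HS. Depth limits the 83 entries below the filter, whose levels rest on few reads.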

Other observations

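The late-numbered miRNAs also differed from the other entries in where they lie and in their base composition, features that were compared as counts with no test. In the TAIR10.1 annotation, 69 of the 143 lay between genes, 28 in introns, 34 in exons outside coding sequence, 7 in coding sequence and 5 in pseudogenes. Of the 279 other entries, 211 lay between genes, 30 in introns, 26 in exons outside coding sequence, 5 in coding sequence and 7 in pseudogenes. The median GC content of the mature sequence was 38.1% for the late-numbered and 47.6% for the other entries. Predicted hairpins had alike median folding energies, at -39.96 and -39.855 kcal per mol for each 100 nt. Among the late-numbered ones the 36 lower in AGO1-IP had a median of -33.7 and the 13 higher ones -39.4. The 36 held 28 different sequences, and copies count more than once in that median, among them miR8167a to miR8167f at -25.2 each.

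Some entries with identical mature sequences had nearly equal counts in total RNA. Reads numbered 115 for miR5643a and 107 for miR5643b, 224 for miR5642a and 222 for miR5642b, and 90 for miR5595a and 88 for miR5995b. Others differed more, with 54 for miR5998a and 67 for miR5998b, and from 36 for miR8167f to 49 for miR8167c. How the deposited counts shared such reads among copies is not given in the sources used here.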
